A study of Mus musculus with 2 samples.

Results

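Axon guidance genes encode secreted and membrane-bound cues, and the receptors that read them, which tell a moving cell where to go. The guidance genes described here are the semaphorins of classes 3 to 7, their plexin and neuropilin receptors, the ephrins and Eph receptors, the Slits and Robos, and the netrins and Unc5 receptors. These families were chosen with earlier results of these data known. Their genes were taken by symbol alone, with no measured value in the rule, which matched 69 of the 24532 genes in the count table. Of these, 68 are annotated as protein-coding, and the remaining one, *Plxna4os1*, is an antisense transcript of the plexin locus that shares the name.

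The cells were cardiac myofibroblasts of C57BL/6 mice (C57BL/6J in the methods of the study), isolated on day 3 after myocardial infarction (MI) by letting digested heart cells attach to plastic and removing the CD45-positive cells. Both cultures were given 12.5 nM of an siRNA with a lipid reagent and harvested after 72 h, and the labels give no difference between them but the siRNA, which was a control (siCtrl) or was directed against *Vgll3* (si*Vgll3*), a transcription cofactor of the vestigial-like family. The labels name a single siRNA for the knockdown, the sources used here do not give the number of hearts behind a culture, and both cultures carried the transfection reagent, with no untransfected library analysed here. There was 1 library per condition, so no difference between them had a replicate check, and no test of the conditions was made.

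Semaphorins bind plexins, and the secreted class 3 members mostly do so together with a neuropilin. Ephrins are held on the cell surface, ephrin-As by a lipid anchor and ephrin-Bs by a transmembrane segment, so they signal between touching cells to Eph receptor tyrosine kinases. Slits are large secreted proteins that bind Robos, and netrins are secreted, laminin-related proteins read by Unc5 receptors, DCC and neogenin. Outside the nervous system the same genes guide vessels, shape the heart and its valves, and control adhesion and the cytoskeleton of mesenchymal cells.

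Reads counted on genes numbered 140815237 in siCtrl against 125789276 in si*Vgll3*. *Vgll3* itself was at 202 TPM (a level normalised to the length of the gene and the depth of the library) in siCtrl against 84.0 TPM in si*Vgll3*, or 41.6% of the control level. Where a pair of values follows without its libraries, siCtrl comes first. The label of the cells was checked on marker genes. All 10 fibroblast and myofibroblast markers had a mean above 1 TPM, with *Acta2* at 3296 TPM in siCtrl against 3866 TPM in si*Vgll3*, and the list summed to 19463 and 15352 TPM. Its members differed in both directions, from *Postn* (M of −1.22), *Col3a1* (−0.86) and *Col1a1* (−0.90) to *Tagln* (0.52) and *Thy1* (0.72). Of 10 leukocyte markers, *Ptprc*, *Adgre1*, *Itgam* and *Cd3e* had 0 reads in both libraries, and the list summed to 15.7 and 14.4 TPM, with *Lyz2* lower (10.9 and 3.13 TPM) and *Cd53* higher (0.760 and 5.91 TPM). Of 8 cardiomyocyte markers, 6 had 0 reads in both, and *Tnnt2* alone made up the sums of 60.0 and 10.4 TPM. The 12 endothelial markers all had reads and summed to 35.98 and 34.03 TPM, with 6 of them at M above 0 and 6 below. *Tek*, the highest, was at 19.5 and 13.4 TPM, while *Egfl7* was at 5.71 and 7.65 TPM, *Cdh5* at 2.13 and 3.01 TPM, *Pecam1* at 1.89 and 2.61 TPM and *Cldn5* at 11 and 94 reads. Pericyte and smooth muscle markers summed to 155 and 208 TPM, mostly *Mcam* (94.9 and 102 TPM) and *Cnn1* (44.0 and 96.6 TPM). Their members differed in both directions. *Notch3* (14.1 and 7.97 TPM) and *Myh11* (205 and 71 reads) were lower. *Rgs5* was at 0.507 and 0.439 TPM and *Cspg4* at 1.10 and 0.874 TPM. *Abcc9* (6 and 20 reads) and *Kcnj8* (0 and 24 reads) had few reads. The 6 mesothelial and epicardial markers found in the table summed to 64.8 and 54.6 TPM, but *Upk3b* was lower (31.6 and 9.89 TPM) and *Krt19* higher (2.86 and 16.8 TPM) in si*Vgll3*. Neural and Schwann markers rested on *Tubb3* (857 and 1107 TPM), and *Sox10* had 8 and 7 reads. The part of these markers in the differences below was not tested.

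The cells expressed a broad set of guidance genes. In the plot of levels by family, 47 of the 69 genes are drawn, those with a mean over both libraries above 1 TPM. They had between 207 and 161571 reads over both libraries, with a median of 4516. The receptor *Unc5b* was the most abundant member, at 259 TPM in siCtrl, and the plexin *Plxnb2* (179 TPM) and the ligand *Slit2* (114 TPM) came next. A further 12 genes had TPM values with a mean at or below 1 TPM, 4 genes had reads but are not in the TPM tables, and 6 genes had 0 reads in both libraries. Sums of TPM over all members were 1199 in siCtrl against 974 in si*Vgll3*, or 81.2% of the control sum.

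**Figure D1:**
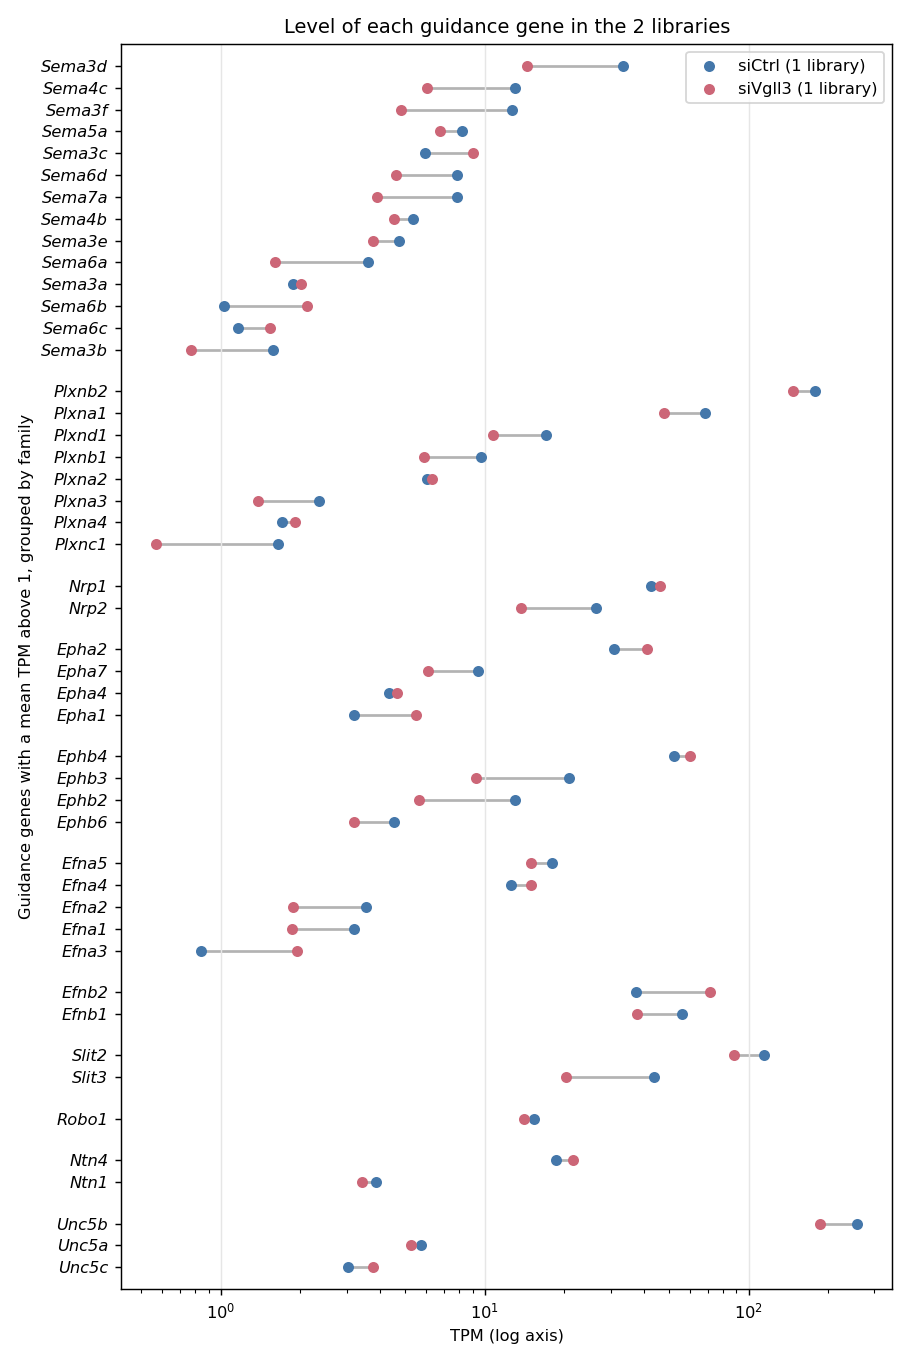
TPM of the 47 guidance genes with a mean above 1 TPM, on a log axis, with 1 point for each library (blue, siCtrl; red, siVgll3) joined by a line and genes grouped by family in order of mean level. *Unc5b* has the highest level in both libraries, and most long lines run from a blue point on the right to a red point on the left.

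For each gene, M is the log2 ratio of TPM in si*Vgll3* to TPM in siCtrl, and A is log2 of the mean TPM. A gene with A > 0 was called lower at M < −0.5 and higher at M > 0.5. Square brackets after an M hold the 95% range that counting the reads allows (Clopper-Pearson, on the share of the reads of that gene that came from si*Vgll3*), and this covers counting error only. Among the 47 guidance genes with A > 0, 21 (44.7%) were lower, against 11.4% of all 11754 genes with A > 0. The number of higher genes was 5 (10.6%), against 5.73% of all genes. The whole interval lay beyond the threshold for 18 of the lower genes (38.3%, against 8.31% of all genes) and for all 5 higher genes (10.6%, against 3.76%). The median M was −0.33 over these 47 genes and −0.05 over all genes. The guidance genes were chosen with earlier results of these data known, so these shares and medians are a description. Of the 25 ligands 11 were lower and 4 higher, and of the 22 receptors 10 were lower and 1 was higher. These are bulk libraries, so fewer cells with a transcript and less of it per cell cannot be told apart.

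**Figure D2:**
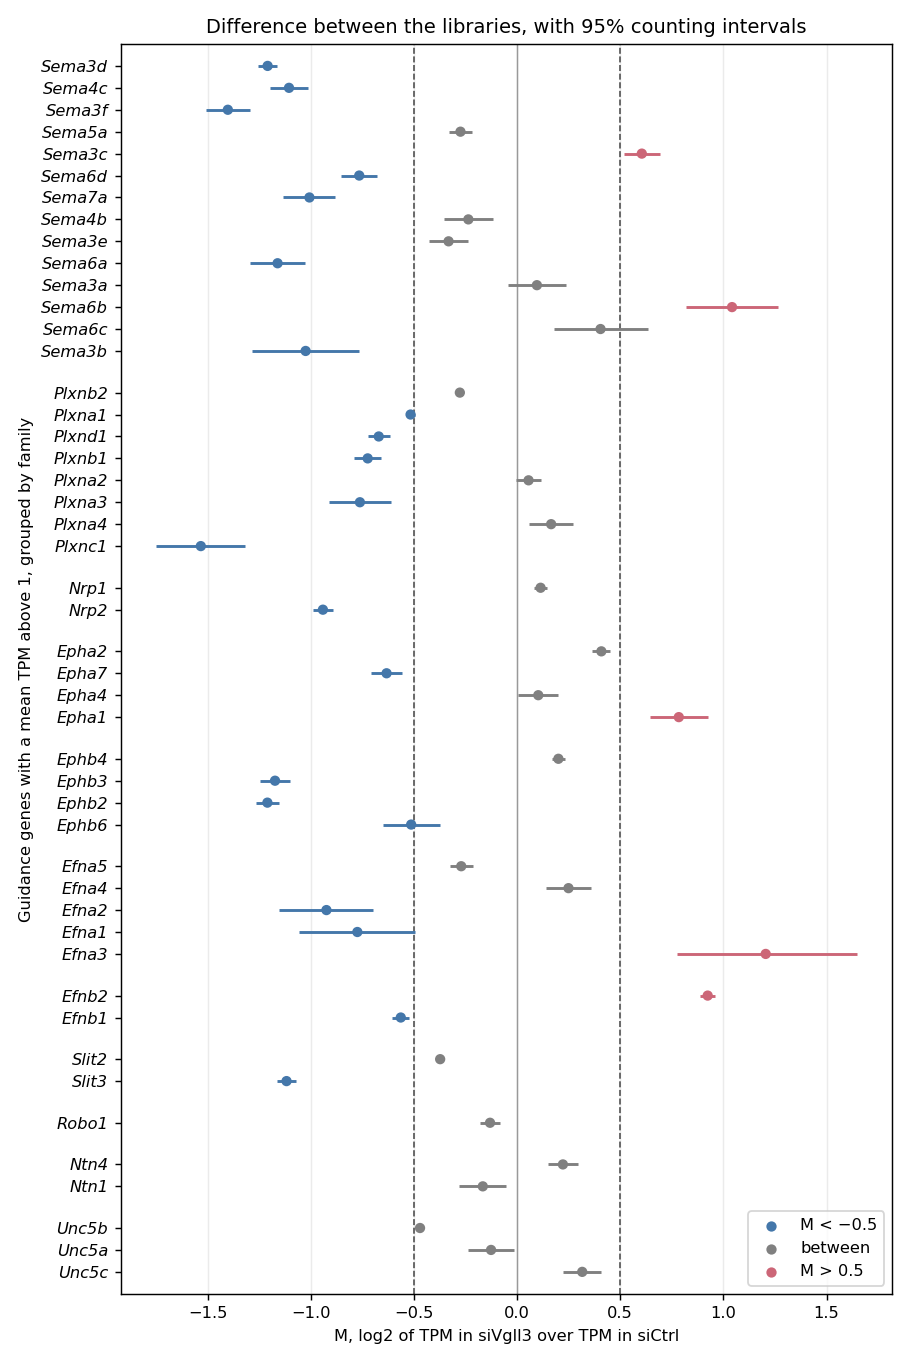
M of the 47 guidance genes (points), with the 95% counting interval as a horizontal line and the thresholds of −0.5 and 0.5 dashed, in the same order as the plot of levels. The 21 lower genes (blue) are spread over 8 of the families, while the 5 higher genes (red) are 2 semaphorins, *Epha1*, *Efna3* and *Efnb2*.

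**Figure D3:**
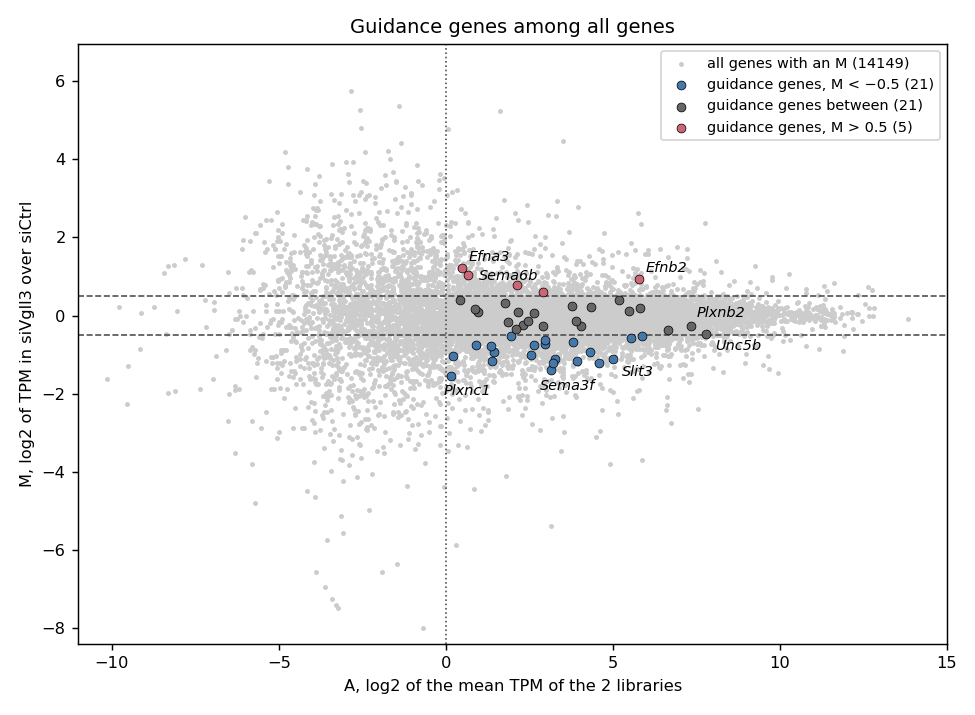
M against A for all genes with an M (grey) and for the 47 guidance genes (blue, lower; dark grey, between; red, higher). The lower guidance genes run over the range of A from *Plxnc1*, just above 0, to *Plxna1* at 5.86.

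Semaphorins made up the largest family, with 20 genes, of which 14 had A > 0. In si*Vgll3*, 7 of the 14 were lower and 2 were higher, and the summed TPM of the family was 110 in siCtrl against 67.4 in si*Vgll3*. *Sema3d* (chromosome 5, 12383161 to 12588953 of mm10), a secreted class 3 cue known for its part in cardiac and vascular patterning, was the most abundant semaphorin. It had 13968 reads in siCtrl against 5592 in si*Vgll3*, or 33.5 and 14.5 TPM, an M of −1.21 [−1.25, −1.16]. *Sema3f*, which repels cells through neuropilin-2, had the lowest M of the family. It was at 12.7 TPM (2717 reads) and 4.82 TPM (953 reads), an M of −1.40 [−1.51, −1.29]. Its neighbour *Sema3b* was near the limit of A, at 1.57 and 0.772 TPM, and was also lower, with an M of −1.02 [−1.29, −0.77]. The other class 3 genes lay elsewhere. *Sema3c*, a cue needed for the cardiac outflow tract, was higher, at 5.93 and 9.02 TPM (M of 0.60 [0.52, 0.69]). *Sema3a*, the classic neuropilin-1 ligand, was at 1.88 and 2.01 TPM with an interval across 0 (M of 0.10 [−0.05, 0.24]), and *Sema3e*, which binds plexin-D1 directly, was at 4.74 and 3.76 TPM (M of −0.33).

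Semaphorins of classes 4 to 7 are tied to the membrane, and 8 of these 13 genes had A > 0. Of the 8, 4 were lower and 1 was higher. *Sema4c*, a ligand of B plexins, was at 13.1 TPM in siCtrl against 6.07 TPM in si*Vgll3* (M of −1.11 [−1.20, −1.01]). *Sema7a*, which hangs on a lipid anchor and binds plexin-C1 and β1 integrins, was at 7.83 and 3.90 TPM (M of −1.01 [−1.13, −0.88]). The class 6 genes lay on both sides. *Sema6a* was lower at 3.60 and 1.61 TPM (M of −1.16 [−1.29, −1.03]), as was *Sema6d* at 7.85 and 4.62 TPM (M of −0.76 [−0.85, −0.68]). In contrast, *Sema6b* was higher at 1.03 and 2.12 TPM (M of 1.04 [0.82, 1.27], 254 and 484 reads), and the fourth gene of the class, *Sema6c*, was at 1.16 and 1.54 TPM with an M of 0.40 [0.18, 0.63] that crossed the threshold within its interval. *Sema5a* and *Sema4b* lay between the thresholds, with M of −0.27 and −0.24.

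Plexins are the signalling receptors for semaphorins, and all 8 plexins with TPM values had A > 0. Of these, 5 were lower and 0 were higher. *Plxnb2* gave 62.5% of the plexin TPM in siCtrl against 66.4% in si*Vgll3*, and its own level was 179 and 147 TPM (M of −0.28 [−0.29, −0.26]). *Plxna1*, the most abundant A plexin, was at 68.4 and 47.8 TPM. Its M of −0.52 [−0.54, −0.49] passed the threshold by less than counting error, and with CPM (counts scaled to library size alone) it was −0.47, short of it. *Plxnd1*, best known from endothelial cells, was at 17.1 and 10.7 TPM (M of −0.67 [−0.72, −0.62]). *Plxnb1* was at 9.71 and 5.88 TPM (M of −0.72 [−0.79, −0.66]), and *Plxna3* was at 2.35 and 1.39 TPM (M of −0.76 [−0.91, −0.61]). *Plxnc1*, the receptor for *Sema7a*, had the lowest M of the guidance genes with A > 0, −1.53 [−1.75, −1.32]. With 1 TPM added to both values it was −0.75, above *Sema3f* at −1.24, and with A taken as the average of both log2 levels *Plxnc1* fell under the limit. Among the 8 plexins it had the lowest level in both libraries, with 740 reads (1.64 TPM) in siCtrl and 237 reads (0.568 TPM) in si*Vgll3*. *Plxna2* and *Plxna4* were not lower, with M of 0.06 [−0.01, 0.12] and 0.17 [0.06, 0.27].

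Neuropilins are co-receptors with short cytoplasmic tails, and the pair differed. *Nrp1* (chromosome 8, 128358591 to 128505476) had 16090 and 16117 reads, or 42.6 and 46.1 TPM, an M of 0.11 [0.08, 0.15]. *Nrp2* (chromosome 1, 62703317 to 62818692) had 10532 reads in siCtrl against 4924 in si*Vgll3*, or 26.4 and 13.7 TPM, an M of −0.94 [−0.99, −0.89]. The intervals of the pair lay far apart, and the share of *Nrp1* in the neuropilin TPM was 61.7% in siCtrl against 77.0% in si*Vgll3*.

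Eph receptors are receptor tyrosine kinases, and 8 of the 14 genes had A > 0. The summed TPM was 139 in siCtrl against 136 in si*Vgll3*, but the makeup of the family differed. Among the EphB receptors, *Ephb2* (chromosome 4, 136647536 to 136836326) had 9062 and 3626 reads, or 13.0 and 5.62 TPM, an M of −1.21 [−1.27, −1.15]. *Ephb3* (chromosome 16, 21204620 to 21223309) was close to it in M, at 20.9 and 9.27 TPM (−1.17 [−1.24, −1.10]). *Ephb4*, the receptor of veins and of ephrin-B2, was already the most abundant EphB gene, at 52.0 TPM in siCtrl against 59.8 TPM in si*Vgll3* (M of 0.20 [0.17, 0.23]). It therefore supplied 57.5% of the EphB TPM in siCtrl against 76.8% in si*Vgll3*. *Ephb6*, which lacks kinase activity, was at 4.55 and 3.19 TPM, and its M of −0.51 [−0.65, −0.38] passed the threshold by less than counting error and was −0.46 with CPM.

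Among the EphA receptors, *Epha2*, the most abundant, was at 31.0 TPM in siCtrl against 41.2 TPM in si*Vgll3* (M of 0.41 [0.37, 0.45]), below the threshold. *Epha7* was lower, at 9.43 and 6.08 TPM (M of −0.63 [−0.71, −0.56]), and *Epha4* was at 4.34 and 4.67 TPM (M of 0.10). *Epha1* was higher, with 666 and 1061 reads, or 3.19 and 5.49 TPM, an M of 0.78 [0.64, 0.93]. An exon of *Epha1* overlaps an exon of *Zyx* on the other strand, and *Zyx* had 85144 and 85554 reads with an M of 0.11. The libraries were made with a stranded kit, but whether strand was used in counting is not given in the sources used here, so part of the *Epha1* reads is of uncertain origin.

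Ephrins summed to 132 TPM in siCtrl against 145 TPM in si*Vgll3*, and their genes differed in both directions. The ephrin-Bs changed places in rank between the libraries. *Efnb1* (chromosome X, 99136061 to 99149022) had 11955 reads in siCtrl against 7487 in si*Vgll3*, or 55.8 and 37.7 TPM, an M of −0.56 [−0.61, −0.52]. *Efnb2* (chromosome 8, 8617235 to 8661242), a marker of arterial endothelium that is also made by mural and mesenchymal cells, had 10353 and 18180 reads, or 37.5 and 71.2 TPM, an M of 0.92 [0.89, 0.96]. Thus *Efnb1* gave 59.7% of the ephrin-B TPM in siCtrl against 34.6% in si*Vgll3*, and *Efnb2* gave 40.2% and 65.2%. *Efnb2* was the most abundant and most deeply counted of the 5 higher guidance genes. Of the 12 endothelial markers, 6 had M above 0, from *Esam* (0.16) to *Cldn5* (3.34). The other 6 had M below 0, from *Flt1* (−0.66) to *Emcn* (−0.02). Only 6 of the 12 had A > 0, and *Cldn5* and *Flt1* were not among them. The part of these markers in the difference of *Efnb2* was not tested.

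All 5 ephrin-As had A > 0. *Efna5* gave 47.2% and *Efna4* 33.0% of the family in siCtrl, at 18.1 and 12.6 TPM, and both lay between the thresholds with M of −0.27 [−0.33, −0.22] and 0.25 [0.14, 0.36]. The scarcer members had larger differences. *Efna2* was at 3.56 and 1.88 TPM (M of −0.92 [−1.15, −0.70]). *Efna1* was at 3.19 and 1.87 TPM (M of −0.77 [−1.06, −0.495]), and its interval crossed the threshold. *Efna3* had the highest M of the guidance genes with A > 0, 1.21 [0.77, 1.65], on only 66 reads in siCtrl against 141 in si*Vgll3* (0.843 and 1.94 TPM). With 1 TPM added its M was 0.68, under the 0.91 of *Efnb2*. With CPM its mean fell under the limit on A, so it was not called there. An exon of *Efna3* overlaps the antisense transcript *Gm15998*, for which no read count was used here.

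Slits are the ligands of Robos. *Slit2* (chromosome 5, 47981291 to 48307735) had 72435 and 51777 reads, or 114 and 88.1 TPM, an M of −0.37 [−0.39, −0.36]. *Slit3* (chromosome 11, 35121456 to 35708507), a Slit made by mesenchymal and smooth muscle cells, had 14014 reads in siCtrl against 5979 in si*Vgll3*, or 43.9 and 20.3 TPM, an M of −1.12 [−1.16, −1.07]. The paralogs thus differed by more than their counting intervals, and the share of *Slit2* in the Slit TPM was 72.2% in siCtrl against 81.3% in si*Vgll3*. *Robo1* was the only Robo with A > 0, at 15.4 and 14.1 TPM (M of −0.13 [−0.18, −0.08]). *Robo4*, the endothelial Robo, had 48 and 68 reads.

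Netrins and their Unc5 receptors held no gene past either threshold among the 5 with A > 0. *Ntn4*, a netrin of basement membranes, was at 18.6 and 21.7 TPM (M of 0.22 [0.15, 0.30]), and *Ntn1*, the founding member, was at 3.86 and 3.44 TPM (M of −0.17 [−0.28, −0.05]). *Unc5b* (chromosome 10, 60762594 to 60831581), a repulsive netrin receptor and a dependence receptor, had 96861 reads in siCtrl against 64710 in si*Vgll3*. Its level was 259 and 187 TPM, the widest gap in TPM of any guidance gene, although its M of −0.47 [−0.48, −0.46] stayed just short of the threshold. *Unc5a* and *Unc5c* were at 5.76 and 3.04 TPM in siCtrl, with M of −0.13 and 0.32.

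**Figure D4:**
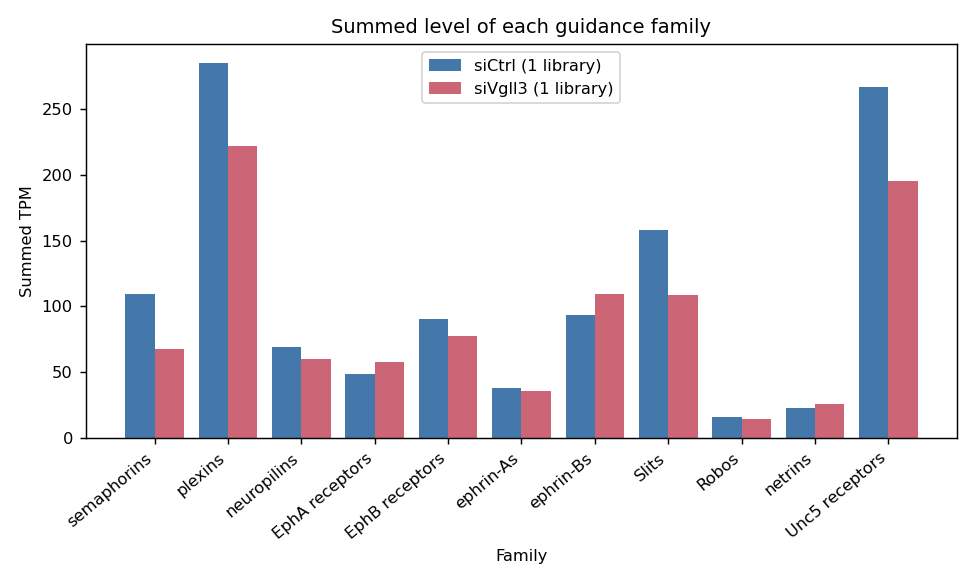
Summed TPM of each guidance family, as bars from 0, in siCtrl (blue) and siVgll3 (red), 1 library each. The sums of semaphorins, plexins, Slits and Unc5 receptors are lower in siVgll3, and those of EphA receptors, ephrin-Bs and netrins are higher.

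At the level of families, the summed TPM in si*Vgll3* was 61.4% of siCtrl for the semaphorins, 68.6% for the Slits, 73.2% for the Unc5 receptors and 77.7% for the plexins. The neuropilins (86.8%), EphB receptors (86.1%), Robos (91.5%) and ephrin-As (93.2%) were nearer to the control. EphA receptors (119%), ephrin-Bs (117%) and netrins (111%) were above it. A few genes set most of these sums, such as *Unc5b* with 96.7% of the Unc5 TPM in siCtrl.

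Ligands were next set beside a receptor they are known to bind, in 15 pairs put together after the values were seen. In 5 of the pairs both partners were lower. They are *Sema3f* with *Nrp2*, *Sema6d* with *Plxna1*, *Sema7a* with *Plxnc1*, and *Efnb1* with both *Ephb2* and *Ephb3*. In 4 pairs the ligand alone was lower (*Sema4c* with *Plxnb2*, *Sema6a* with *Plxna2*, *Efna1* with *Epha2*, *Slit3* with *Robo1*). In 2 pairs the receptor alone was lower, namely *Sema3e* with *Plxnd1* and *Ntn1* with neogenin (*Neo1*). The ligand alone was higher in the pair of *Efnb2* and *Ephb4*, and neither partner passed a threshold in the other 3 pairs. These counts depend on which pairs were chosen. *Efnb2* (M of 0.92) was set beside *Ephb4* alone, not beside *Ephb2* (−1.21) or *Ephb3* (−1.17). The higher ligands *Sema3c* (M of 0.60) and *Efna3* (1.21) are in no pair. The pairs share genes with each other and are given as a description.

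**Figure D5:**
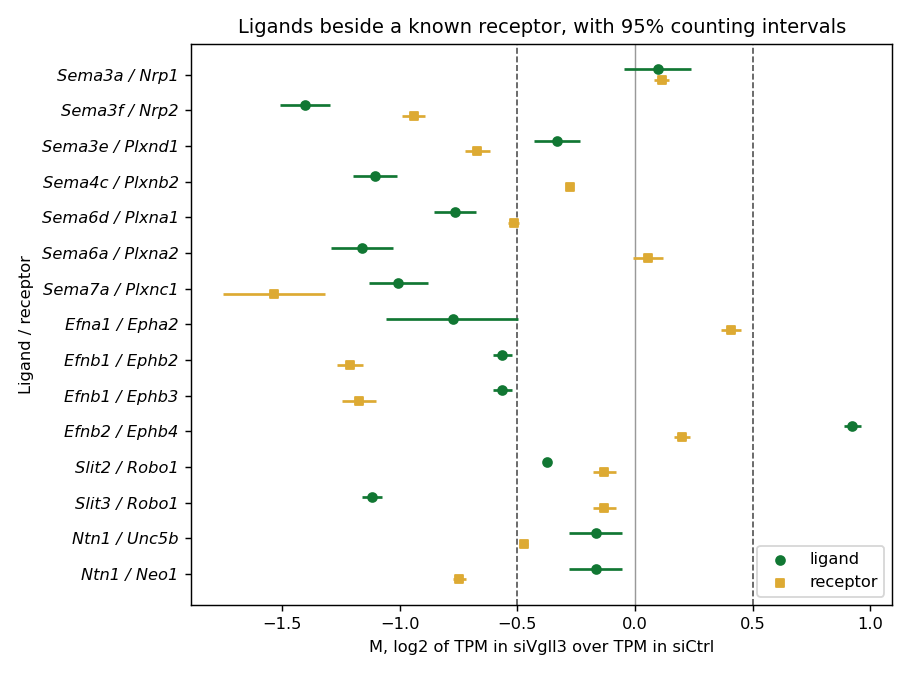
M of the ligand and M of the receptor for the 15 pairs, which were chosen after the values were seen, with 95% counting intervals as lines and the thresholds dashed. In 5 pairs both partners lie beyond the lower threshold. In the pair of *Efnb2* and *Ephb4* the ligand lies beyond the upper threshold and the receptor lies between the thresholds.

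Other genes of the guidance pathways were taken as a list of 72 co-receptors, adaptors and effectors, all found in the count table, of which 54 had A > 0. In this list 9 genes (16.7%, against 11.4% of all genes) were lower and 3 (5.56%, against 5.73%) were higher, and its median M was −0.04, near the −0.05 of all genes. Of the 54 genes, 6 were lower and 1 was higher with the whole interval beyond the threshold, against 8.31% and 3.76% of all genes. *Neo1*, a receptor for netrins and repulsive guidance molecules, was at 67.1 TPM in siCtrl against 39.96 TPM in si*Vgll3* (M of −0.75 [−0.77, −0.72]). *Dag1*, the dystroglycan that binds Slits in the matrix, was at 200 and 133 TPM (M of −0.58 [−0.60, −0.57]). *Itga1*, the α1 integrin that partners β1 in binding semaphorin 7A, was at 17.2 and 9.37 TPM (M of −0.88 [−0.94, −0.82]). *Myo10*, the myosin of filopodia, was at 49.1 and 28.1 TPM (M of −0.81 [−0.84, −0.78]). The other lower genes were *Kalrn*, *Tiam1*, *Vav3*, *Ablim1*, which binds actin, and *Dpysl4*, of the collapsin response mediators, with M from −0.98 (*Kalrn*) to −0.51 (*Vav3*). With CPM the calls of *Vav3* (−0.45), *Tiam1* (−0.49) and *Dpysl4* (−0.49) ended. The higher genes were the kinase *Pak1* (23.95 and 38.3 TPM, M of 0.68 [0.62, 0.73]), the Rac regulator *Chn1* (M of 0.56) and the Unc5 ligand *Flrt2* (M of 0.54). The 3 most abundant genes of the list lay between the thresholds. *Itgb1* was at 1101 and 1004 TPM (M of −0.13), *Sdcbp*, the ephrin-B adaptor syntenin, at 264 and 320 TPM (M of 0.28), and *Dpysl3* at 196 and 270 TPM (M of 0.46, and 0.51 with CPM, past the threshold).

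VGLL3 is a cofactor of TEAD transcription factors, so the promoters of the guidance genes were searched for the core TEAD motif, GGAATG or CATTCC on its other strand. In the study, knockdown of *Tead1* left fibrotic gene expression of cardiac myofibroblasts unaffected. The study proposes that TEAD1 has no part in the fibrotic pathway of VGLL3. The windows were those of RefSeq on GRCm38.p6 (the mm10 assembly), from 250 bases before to 50 after each start site. Of the 59 guidance genes with a window, 9 (15.3%) held the motif, against 4481 of all 27025 genes (16.6%) and 1340 of the 9363 genes with A > 0 (14.3%). It was present in 2 of 17 lower genes, 2 of 5 higher genes, 1 of 19 genes between the thresholds and 4 of 18 genes too low to be called. The 4 promoters of lower or higher genes with the motif follow, 5′ to 3′ on the strand of the gene, with the match in capitals. Those of *Efnb2* (chr8:8661193-8661492, minus strand, match starting at −105 from the start site) and *Epha1* (chr6:42373219-42373518, minus strand, −161) belong to higher genes. Those of *Plxnb1* (chr9:109095186-109095485, plus strand, −148) and *Plxnd1* (chr6:115994956-115995255, minus strand, −173) belong to lower genes. A match is a run of letters, and no binding was measured here.
Efnb2: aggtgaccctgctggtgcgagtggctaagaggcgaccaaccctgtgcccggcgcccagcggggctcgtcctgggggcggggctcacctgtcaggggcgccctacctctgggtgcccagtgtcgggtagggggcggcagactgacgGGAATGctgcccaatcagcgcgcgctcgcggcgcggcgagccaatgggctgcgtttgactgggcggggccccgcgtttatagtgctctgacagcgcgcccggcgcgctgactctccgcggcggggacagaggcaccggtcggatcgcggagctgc
Epha1: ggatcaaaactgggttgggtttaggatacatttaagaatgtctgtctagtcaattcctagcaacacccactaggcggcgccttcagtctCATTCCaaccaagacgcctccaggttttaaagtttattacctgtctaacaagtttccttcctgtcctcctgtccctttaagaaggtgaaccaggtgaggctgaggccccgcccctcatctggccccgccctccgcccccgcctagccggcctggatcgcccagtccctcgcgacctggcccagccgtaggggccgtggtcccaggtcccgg
Plxnb1: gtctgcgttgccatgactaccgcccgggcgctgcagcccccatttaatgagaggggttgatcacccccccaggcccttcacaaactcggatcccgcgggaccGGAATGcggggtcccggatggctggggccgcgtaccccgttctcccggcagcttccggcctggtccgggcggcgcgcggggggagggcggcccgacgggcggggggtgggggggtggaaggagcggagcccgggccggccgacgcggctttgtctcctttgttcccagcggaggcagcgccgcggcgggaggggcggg
Plxnd1: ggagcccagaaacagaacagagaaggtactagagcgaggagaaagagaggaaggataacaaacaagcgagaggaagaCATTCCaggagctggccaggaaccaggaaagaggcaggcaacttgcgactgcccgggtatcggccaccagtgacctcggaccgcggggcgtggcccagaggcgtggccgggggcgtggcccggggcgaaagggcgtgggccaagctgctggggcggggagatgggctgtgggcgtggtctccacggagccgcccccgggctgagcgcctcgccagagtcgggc

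The remaining 22 guidance genes were too low to be called. Of these, 6 Eph, netrin and semaphorin genes, *Epha5*, *Epha6*, *Epha8*, *Epha10*, *Ntn5* and *Sema5b*, had 0 reads in siCtrl as in si*Vgll3*, which leaves room for up to 3 reads each. *Ephb1* (0 and 8 reads), *Plxnb3* (3 and 0), *Unc5d* (6 and 0) and *Plxna4os1* (8 and 0) were near that limit. *Epha3* had 146 reads in siCtrl against 85 in si*Vgll3*, *Robo2* had 187 and 122, *Ntn3* had 166 and 112, and *Sema4g* had 155 and 162. *Sema4a*, a semaphorin of immune cells, had 79 and 30 reads, and *Sema4d*, another, had 59 and 91. *Efnb3*, the ephrin-B best known from neurons, had 13 and 44 reads. *Sema3g* (24 and 28), *Sema4f* (23 and 15), *Slit1* (20 and 18) and *Robo3* (6 and 2) were each under 30 reads in both libraries.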

How the data were processed

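Total RNA of 2 cultures of cardiac myofibroblasts, 1 per condition, was made into libraries with a TruSeq Stranded mRNA kit and read on a NovaSeq. Per the submitters' processing notes, the authors used FastQC, Trimmomatic, HISAT2 and StringTie with mm10, and reads shorter than 36 bp were removed. Versions, annotation and the use of strand in counting are not given in the sources used here. The deposited read counts are raw whole numbers per gene (140815237 in siCtrl and 125789276 in si*Vgll3*). The deposited TPM values are scaled by the authors for gene length and library size and cover 14158 genes. M from TPM differed from M from CPM by a median of −0.05 over the guidance genes with A > 0, within −0.16 to 0.05. The difference lay more than 0.05 from that median for 2 of these genes.

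The limits for lower genes (M < −0.5 and A > 0) are those of the study, and the definitions of M and A from TPM and the mirrored limit for higher genes were chosen here. No pseudocount was added, and intervals are exact binomial on the 2 read counts and cover counting error only, so depth sets their width. No p-value was computed, because each condition had 1 library. The guidance genes and all gene lists were chosen with earlier results of these data known. Genes named are *Vgll3*, every guidance gene with A > 0 past a threshold or within 0.1 of one, the most abundant gene of each family, and from the pathway list those past a threshold and the 3 most abundant, and the remaining guidance genes are accounted for by name. Alternatives were CPM, TMM (edgeR 4.0.16) and size factors (DESeq2 1.42.0), used for scaling only, added constants, other filters, centring and thresholds. Exon overlaps came from GENCODE on mm10, where 12 of the 47 guidance genes with A > 0 shared exon sequence with another gene. For 4 of the 12, the overlapping gene had a row of counts. Besides *Epha1* and *Efna3*, the called genes among the 12 were *Plxnc1*, overlapped on its own strand, *Plxna1*, *Plxnb1* and *Sema4c*. These lower genes are overlapped by genes without a row of counts. Computations used Python 3.11.15, numpy 2.4.6, pandas 2.3.3, scipy 1.17.1, matplotlib 3.10.9 and R 4.3.3. Only the counting interval was tested on simulated counts, which held no variation between cultures.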

Additional observations from a re-analysis of the deposited data

How the results depend on the processing

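No paired analysis was possible because there was only 1 library on either side, and so no library could be left out and no spread between cultures is known. The count of lower guidance genes was 21 as reported and stayed between 14 (A above 2) and 25 (no filter on A) under the alternatives, apart from a threshold of 1 on M, which left 10 lower and 2 higher (over all genes, 3.27% and 1.76%). The count of higher genes was 5 as reported, 3 with A above 2 and 8 with no filter on A. Over all genes, 9.34% were lower and 3.95% higher with A above 2, and 14.9% and 10.1% with no filter. A stricter filter or threshold removes genes by its construction. CPM, TMM and DESeq2 size factors each gave 19 lower and 4 higher among 49 guidance genes with A > 0. The calls lost were *Ephb6* and *Plxna1* (M near the threshold) and *Efna3* (A at or below 0). Over all genes, 10.0% were lower and 6.36% higher with CPM, 10.2% and 6.21% with TMM, and 10.2% and 6.16% with DESeq2 size factors. All 3 scalings also ended the calls of *Vav3* and *Tiam1* and put *Dpysl3* past the threshold. The median M ran from −0.33 to −0.20. None of the 52 named genes changed sign under any of the 6 alternatives of scaling, added constant or centring.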

Other observations

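Guidance genes that lie close together in the genome did not all share a direction. The ephrin-A genes *Efna1*, *Efna3* and *Efna4* lie in a row on chromosome 3, with gaps of 32948 and 10454 bases, and had M of −0.77, 1.21 and 0.25. *Sema3b* and *Sema3f* on chromosome 9, 72258 bases apart, were both lower (M of −1.02 and −1.40). On chromosome 5, *Sema3d*, *Sema3a* and *Sema3e* lie in a row with gaps of 535869 and 421791 bases and had M of −1.21, 0.10 and −0.33. *Ephb6* and *Epha1* on chromosome 6, 737978 bases apart, had M of −0.51 and 0.78. These are values of 2 libraries, and no relation between neighbours was tested.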
